A study of Homo sapiens with 9 samples.

Results

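The 48 genes described here encode the transcription factor NRF2 and its partners, the enzymes of glutathione and thioredoxin metabolism, and related antioxidant, NADPH, iron and detoxification enzymes. They were chosen by symbol from a list of this pathway. All 48 were found among the 24069 rows of the deposited expression table, 47 in a row of their own and GSTO1 in a row that combines it with GSTO2. RNA was sequenced from 9 libraries, 3 of each of 3 groups, lettered A, B and C. PR2 and PR1 are ponatinib-resistant derivatives of LC-2/ad cultured in 200 nM ponatinib, and the parental cells are LC-2/ad itself, a line from a human lung adenocarcinoma in which RET is fused to CCDC6. Ponatinib inhibits several kinases, RET among them. The labels name no drug for parental cells, and resistance and exposure to the drug therefore cannot be told apart where a derivative is set against them. Whether the letters are separate cultures, or each derivative a single clone, is not stated. The p-values thus cover the spread between libraries alone, which may be technical.

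NRF2, encoded by NFE2L2, is held low by KEAP1, which presents it for degradation, and is released when electrophiles or oxidants modify KEAP1. It then pairs with small MAF proteins at antioxidant response elements and induces genes that make and recycle glutathione and thioredoxin, supply NADPH, store iron and conjugate electrophiles, while BACH1 competes for the same elements. In lung adenocarcinoma the pathway is known for mutations of KEAP1 and NFE2L2 that leave it constantly active. Because KEAP1 acts on the NRF2 protein, the level of NFE2L2 RNA does not report the activity of the factor.

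All 9 libraries expressed the epithelial markers EPCAM, KRT8, KRT19 and CDH1, with CDH1 the lowest at 54.5 to 113 FPKM, while KRT18 was listed at 2.34 to 8.17 FPKM. FPKM, the fragments of a gene scaled to the length of its transcript and the size of the library, allows levels of different genes to be compared per length. Of 4 fibroblast markers only COL1A1 reached 1 FPKM in any library (10.04 at most). Of 4 blood cell markers PTPRC, CD3E and LYZ stayed below 0.189 FPKM, and CD68 has only a row that combines it with EIF4A1, MPDU1 and SENP3, so its own level is unknown. Of 3 endothelial markers only PECAM1 reached 1 FPKM (1.13 at most). The libraries held 11263 to 11629 rows at 1 FPKM or more, and their depth relative to parental A, read from the smallest steps of low values, was 0.758 to 1. In such bulk samples fewer cells that express a gene and less RNA per cell cannot be told apart.

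A minority of the 48 genes changed in each comparison, in both directions. All 48 were at 1 FPKM or more in at least 3 libraries and were tested together with the other rows by limma on log2(FPKM + 1), where a gene was said to change at a Benjamini-Hochberg adjusted p under 0.05. In PR2 against parental cells 5 of 48 rose and 9 fell, which is 29.2% of them, against 23.4% of all 12011 rows tested (13.6% higher and 9.83% lower). In PR1 against parental cells 3 rose and 5 fell, 16.7% against 15.5% of all rows (7.56% higher and 7.98% lower). Between the derivatives 6 were higher and 4 lower in PR2 than in PR1, 20.8% against 19.9% of all rows (11.0% higher and 8.92% lower). In PR1 against parental cells and between the derivatives these shares lay near those of all rows. In PR2 against parental cells more members fell than rose, whereas more of all rows rose than fell. That order of the members did not hold under several alternatives. Fewer members fell than rose without PR2 A, PR2 C, parental B or parental C, and after quantile normalization. No test was run over the list, so nothing is claimed for the members as a list. The median log2 fold change of the 48 was −0.08 in PR2 and −0.14 in PR1 against parental cells, where the medians of all rows were 0.03 and 0.05, and 0.02 between PR2 and PR1, where that of all rows was 0.00.

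In all, 18 members changed in at least 1 comparison and 30 in none. Leaving out a single library lowered several counts, and with most libraries also the share of all rows that changed. Some counts rose. Without parental A 11 fell in PR2 against parental cells (24.3% of all rows changed). Without PR2 A 6 fell in PR1 against parental cells (16.9% of all rows changed). In PR2 against parental cells 3 fell without PR2 C or parental B, 4 without PR2 A or parental C and 5 without PR2 B, while 5 or 6 rose in each case. The share of all rows was 15% without PR2 C and 15.6% without parental B, against 23.4%. In PR1 against parental cells 3 fell without PR1 A, PR1 B or parental A and 2 without PR1 C or parental B, and 1 rose without PR1 A or parental B and 0 without PR1 C or parental C. The share of all rows was 9.5% without PR1 C, against 15.5%. Between the derivatives 0 or 1 were lower without any single PR2 or PR1 library, and 2 without parental B, where the share of all rows lay between 11.8% without PR2 C and 18.6% without parental B, against 19.9%. With the letter as a replicate block 4 rose and 8 fell in PR1, and 7 were higher and 7 lower in PR2 than in PR1. That letter effect was shared by all 9 libraries, and so also by PR2 and parental cells, where pairing is uncertain. The block also raised the share of all rows, to 25.7% in PR1 against parental cells and 31.5% in PR2 against PR1. After quantile normalization 7 rose and 5 fell in PR2 against parental cells.

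**Figure D1:**
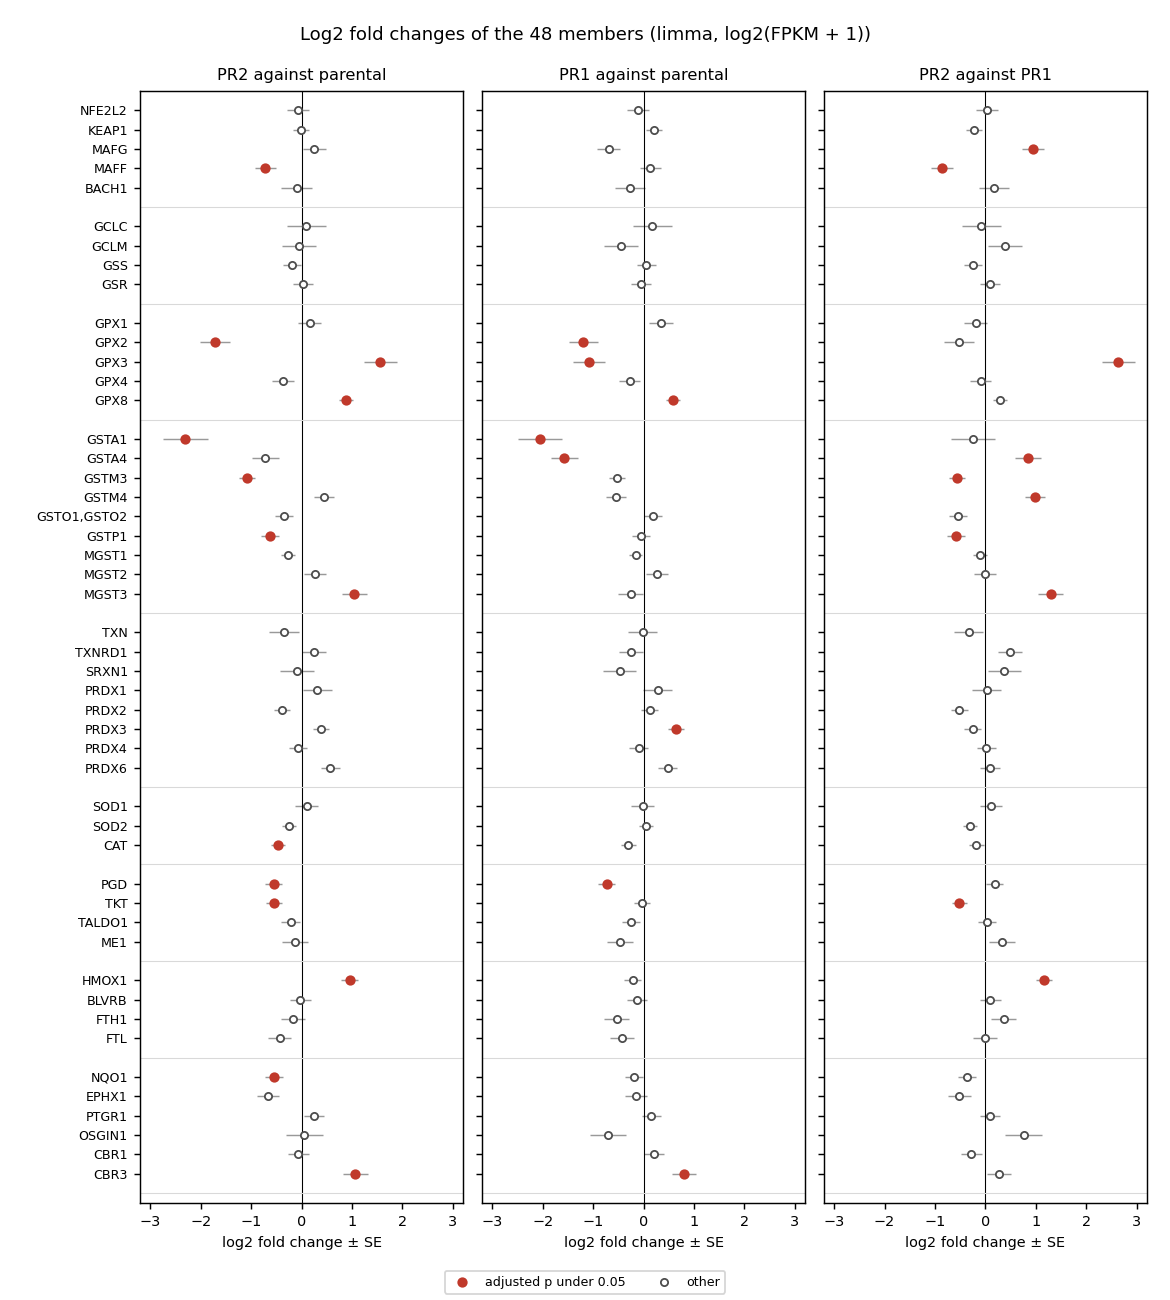
Log2 fold change of each of the 48 members with its standard error (limma on log2(FPKM + 1), x axis), with a panel each for PR2 and for PR1 against parental cells and for PR2 against PR1. Filled points passed an adjusted p under 0.05. GPX3 lies to the right in PR2 against parental cells (1.56) and to the left in PR1 against parental cells (−1.08), and the 4 genes of glutathione synthesis and recycling lie near 0 in all panels.

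The members differed more in level than in fold change. The ferritin chains FTH1 and FTL, which store iron, the transferase gene GSTP1 and the phospholipid peroxidase gene GPX4 had the highest levels. These 4 made up 61.6% of the summed FPKM of the members in PR2, 59.1% in PR1 and 65.9% in parental cells. FTH1 ranked 18 of 24069 rows in PR2, 38 in PR1 and 18 in parental cells. At the low end, GSTM4, GSTM3, GPX2, GSTA1, GSTA4 and CBR3 stood below 10 FPKM in every library, and each of them changed in at least 1 comparison. The 48 members together took 1.97% to 2.5% of the summed FPKM of a library.

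**Figure D2:**
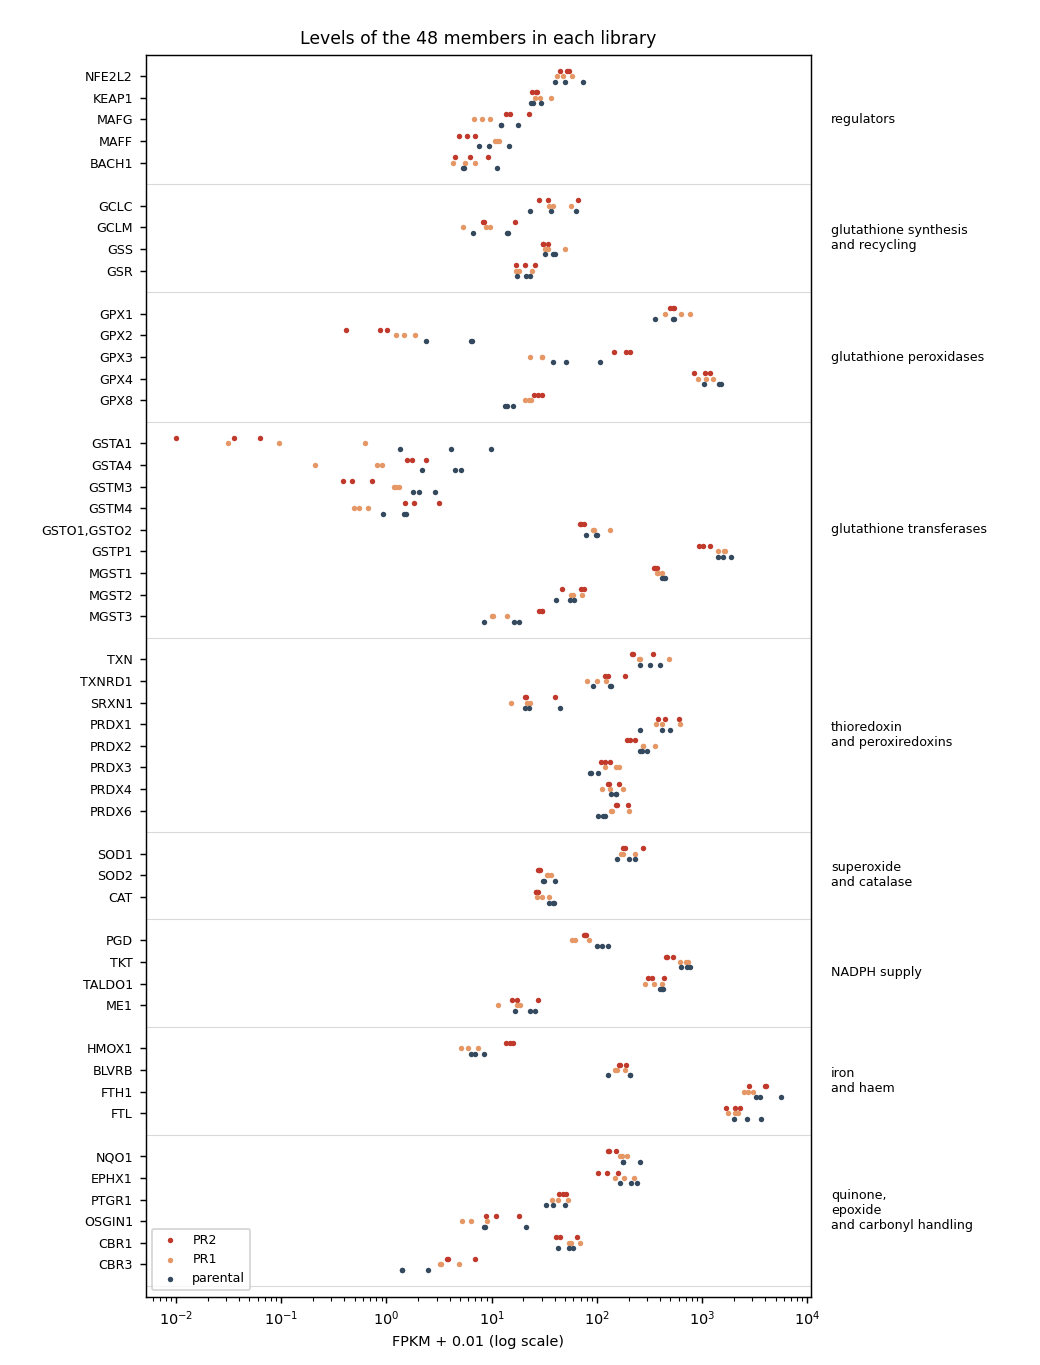
FPKM of each member in each library on a log axis (0.01 was added so that 0 can be drawn), grouped by role, with PR2 above PR1 above parental cells within each row. Levels run from 0 for GSTA1 in PR2 A to 5617 FPKM for FTH1 in parental C.

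Among the regulators, NFE2L2 and KEAP1 passed the threshold in no comparison. NFE2L2 stood at 44.8, 52.3 and 54.0 FPKM in PR2, at 41.7, 48.1 and 58.5 in PR1 and at 49.8, 40.1 and 73.6 in parental cells (libraries A, B and C here and below). The 3 groups overlapped, and the log2 difference was −0.07 between PR2 and parental cells (95% interval −0.57 to 0.43, limma adjusted p = 0.85) and −0.11 between PR1 and parental cells (−0.60 to 0.39, limma adjusted p = 0.80). KEAP1, the adaptor that targets NRF2 for degradation, was at 26.9, 26.4 and 24.4 FPKM in PR2, 36.4, 26.1 and 29.0 in PR1 and 23.9, 24.9 and 29.3 in parental cells. Its log2 difference was −0.00 in PR2 (95% interval −0.36 to 0.35, limma adjusted p = 0.99) and 0.21 in PR1 (−0.14 to 0.57, limma adjusted p = 0.42). The repressor gene BACH1 averaged 6.61 ± 2.36 FPKM in PR2, 5.63 ± 1.33 in PR1 and 7.31 ± 3.35 in parental cells (SD, n = 3 each), and passed in no comparison either (lowest limma adjusted p 0.59).

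Of the small MAF genes, MAFG and MAFF differed between the derivatives, in opposite directions, while the difference of 0.37 in MAFK missed the threshold (limma adjusted p = 0.15). MAFG, which encodes the partner of NRF2 on DNA, stood at 22.5, 13.7 and 15.0 FPKM in PR2 and at 8.17, 6.84 and 9.71 in PR1, beside 12.2, 12.3 and 17.7 in parental cells. It was higher in PR2 than in PR1, with no overlap, by a log2 of 0.95 ± 0.22 (SE, limma adjusted p = 0.014). This call was lost without PR1 B (limma adjusted p = 0.054) and without the 3 A libraries (0.063). Against parental cells the MAFG difference of −0.69 in PR1 missed the threshold (limma adjusted p = 0.060) and passed with the replicate block (0.029), without PR2 A (0.032) and after quantile normalization (0.034). MAFF, another small MAF, went the other way, at 4.84, 5.77 and 6.90 FPKM in PR2, 11.8, 11.3 and 10.7 in PR1 and 7.63, 9.34 and 14.6 in parental cells. Every PR2 library lay below every other library. The log2 fold change was −0.86 ± 0.22 against PR1 and −0.72 ± 0.22 against parental cells (limma adjusted p = 0.020 and 0.036). The first call was lost without PR2 A, PR2 B, PR1 A or PR1 B (limma adjusted p of up to 0.059) and without the A libraries (0.064). The second was lost without PR1 C, parental B, parental C or any PR2 library (up to 0.098), with no filter on low values (0.058) and in a fit of the 6 libraries alone (0.070).

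The genes that make and recycle glutathione did not pass the threshold in any comparison. GCLC and GCLM encode the subunits of the rate-limiting ligase, GSS the synthase and GSR the reductase that regenerates glutathione with NADPH. GCLC stood at 66.6, 28.4 and 34.3 FPKM in PR2, 35.4, 38.2 and 57.1 in PR1 and 37.0, 23.0 and 62.8 in parental cells. GCLM was at 16.7, 8.41 and 8.28 FPKM in PR2, 8.88, 5.36 and 9.75 in PR1 and 13.9, 6.62 and 14.2 in parental cells. In both genes the spread within a group exceeded the difference between groups, so their intervals were wide (log2 −0.77 to 0.95 for GCLC in PR2 against parental cells). GSS and GSR varied less. Their intervals in that comparison ran from −0.59 to 0.22 for GSS and from −0.41 to 0.47 for GSR.

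Of the 5 glutathione peroxidases, only GPX3 passed the threshold between the derivatives, with the largest log2 difference of any member. GPX3, the secreted plasma peroxidase, was at 144, 204 and 189 FPKM in PR2, at 23.1, 29.9 and 30.3 in PR1 and at 106, 50.9 and 38.4 in parental cells. Every PR2 library lay above every parental library and every PR1 library below. GPX3 rose in PR2 by a log2 of 1.56 ± 0.32 against parental cells and was higher by 2.64 ± 0.32 in PR2 than in PR1 (limma adjusted p = 0.0063 and 0.00047), and both calls held without any single library and without the 3 A libraries. The fall in PR1 of −1.08 ± 0.32 was close to the threshold (limma adjusted p = 0.047). It was lost without PR2 B, PR2 C, any PR1 library, parental A or parental B (limma adjusted p of up to 0.13), without the A libraries (−0.54, 0.065), with other filters (0.082 and 0.054), after quantile normalization (0.059) and with the 6 libraries alone (0.063).

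GPX2, the gastrointestinal form and a known NRF2 target, stood at 1.01, 0.856 and 0.405 FPKM in PR2, 1.47, 1.85 and 1.22 in PR1 and 6.40, 6.51 and 2.35 in parental cells. No library of a derivative reached the lowest parental value. It fell by 1.72 ± 0.29 on the log2 scale in PR2 and by 1.19 ± 0.29 in PR1 (limma adjusted p = 0.0022 and 0.021), on a scale that understates the change of low genes. The call in PR1 was lost without PR1 A, PR1 C, parental A or parental B (limma adjusted p of up to 0.084) and without the A libraries (0.096). GPX8, an endoplasmic reticulum peroxidase, moved upward instead, at 27.4, 30.2 and 25.3 FPKM in PR2, 22.9, 20.6 and 23.8 in PR1 and 14.1, 16.1 and 13.5 in parental cells. The log2 fold change was 0.88 ± 0.14 in PR2 and 0.59 ± 0.14 in PR1 (limma adjusted p = 0.0015 and 0.018), the call in PR1 being lost without PR1 C or parental C (up to 0.068) and without the A libraries (0.063). The abundant peroxidases passed in no comparison. GPX1, the cytosolic form, averaged 523 ± 25.0 FPKM in PR2, 610 ± 159 in PR1 and 476 ± 103 in parental cells, and GPX4 averaged 1028 ± 182, 1094 ± 182 and 1330 ± 250 in the same order (SD, n = 3 each).

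The promoters of the genes that changed the same way in both derivatives against parental cells are shown because NRF2 acts through the antioxidant response element, whose core is TGACNNNGC. Of these genes GSTA1, GPX2, GPX8 and PGD had an entry in the RefSeq promoter table (GRCh38.p14), and CBR3 is named only. Each line gives the 250 bases before the annotated start on the strand of the gene, 5′ to 3′, with a match to the core on either strand in capitals. GPX2 lies on the minus strand (chr14:64942746-64942995), GSTA1 on the minus strand (chr6:52803817-52804066), GPX8 on the plus strand (chr5:55159921-55160170) and PGD on the plus strand (chr1:10398814-10399063).
GPX2: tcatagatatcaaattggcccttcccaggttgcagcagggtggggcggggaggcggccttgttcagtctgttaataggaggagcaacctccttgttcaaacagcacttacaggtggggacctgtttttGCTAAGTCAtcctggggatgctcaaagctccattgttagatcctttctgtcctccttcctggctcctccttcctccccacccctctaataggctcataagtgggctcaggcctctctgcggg
GSTA1: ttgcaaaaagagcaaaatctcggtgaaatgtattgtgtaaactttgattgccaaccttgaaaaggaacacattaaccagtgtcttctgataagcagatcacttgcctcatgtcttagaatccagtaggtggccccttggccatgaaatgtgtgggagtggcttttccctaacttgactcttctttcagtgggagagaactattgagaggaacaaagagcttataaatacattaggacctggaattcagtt
GPX8: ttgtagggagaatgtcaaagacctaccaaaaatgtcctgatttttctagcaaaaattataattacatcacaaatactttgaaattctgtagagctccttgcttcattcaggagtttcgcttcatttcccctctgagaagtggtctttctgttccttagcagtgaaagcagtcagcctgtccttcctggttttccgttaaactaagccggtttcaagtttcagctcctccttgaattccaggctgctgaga
PGD: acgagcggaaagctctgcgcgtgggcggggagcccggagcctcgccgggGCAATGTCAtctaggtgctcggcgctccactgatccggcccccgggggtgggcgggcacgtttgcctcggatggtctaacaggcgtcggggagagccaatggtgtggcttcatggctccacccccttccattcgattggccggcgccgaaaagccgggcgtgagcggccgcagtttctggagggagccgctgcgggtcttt
The GPX2 match, GCTAAGTCA, is the core read on the opposite strand, and its first printed base is 122 bases before the start. The PGD match, GCAATGTCA, also on the opposite strand, begins 201 bases before the start. No match lay in the GSTA1 or GPX8 window, also when the 50 bases after the start were included. Over windows of 300 bases (250 before to 50 after the start), 39 members had an entry and 13 of them (33.3%) held the core in at least 1 window, against 16.1% of the 27305 genes of the table. Among members with an entry, 5 of 16 that changed in some comparison held it (31.2%), and 8 of 23 that changed in none (34.8%). The members were chosen by symbol as genes of this pathway, so their share is no result of these libraries, and the difference was not tested. A match is a description of the letters and not a bound site, and no other motif was searched.

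The glutathione transferases, which conjugate electrophiles to glutathione, fell in 3 of 9 members and rose in 1 in PR2 against parental cells, and fell in 2 and rose in 0 in PR1. Between the derivatives 3 were higher and 2 lower in PR2. GSTA1, an alpha-class transferase, was listed at 0, 0.0256 and 0.0526 FPKM in PR2, at 0.0213, 0.614 and 0.0862 in PR1 and at 1.35, 9.94 and 4.08 in parental cells. The groups did not overlap with the parental one, although parental libraries themselves ranged over several-fold. It reached 1 FPKM in the 3 parental libraries alone and so was tested only through the group where it is high, which means that it had to differ. Its log2 fold change was −2.31 ± 0.44 in PR2 and −2.06 ± 0.44 in PR1 (limma adjusted p = 0.0042 and 0.011). These p-values lend no support for that reason. Nor do calls kept without any single library, since the filter was set on all 9 libraries. The counts of falls in PR2 and PR1 against parental cells include GSTA1. GSTA4, which conjugates products of lipid peroxidation, was at 1.57, 2.37 and 1.75 FPKM in PR2, 0.202, 0.892 and 0.803 in PR1 and 2.16, 4.51 and 5.14 in parental cells. It fell in PR1 by 1.57 ± 0.27 on the log2 scale (limma adjusted p = 0.0035), also without any single library. In PR2 the difference of −0.72 missed the threshold (limma adjusted p = 0.076), with PR2 B above parental A, and passed without parental A (0.010) and without the 3 A libraries (0.0061). GSTA4 was higher in PR2 than in PR1 by 0.85 ± 0.27 (limma adjusted p = 0.049), a call lost without any PR2 or PR1 library or parental B (up to 0.15), with no filter (0.092) and after quantile normalization (0.081).

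The mu-class genes went apart. GSTM3 stood at 0.466, 0.721 and 0.375 FPKM in PR2, 1.23, 1.32 and 1.18 in PR1 and 2.05, 2.91 and 1.77 in parental cells, so that the 3 groups formed separate steps. It fell in PR2 by 1.08 ± 0.16 on the log2 scale against parental cells (limma adjusted p = 0.00093). It was also lower in PR2 than in PR1, by −0.57 ± 0.16 (limma adjusted p = 0.031), a call lost without PR2 A, PR2 C or any PR1 library (up to 0.12) and without the A libraries (0.10). The GSTM3 difference of −0.52 in PR1 missed the threshold (limma adjusted p = 0.052) and passed with the replicate block (0.017) and without parental C (0.043). GSTM4 was at 1.49, 3.19 and 1.83 FPKM in PR2, 0.538, 0.656 and 0.479 in PR1 and 1.45, 1.54 and 0.926 in parental cells. PR1 was the low group here. GSTM4 was higher in PR2 than in PR1 by 0.99 ± 0.20 (limma adjusted p = 0.0071), also when any single library was left out. Its difference of −0.56 in PR1 against parental cells missed the threshold (limma adjusted p = 0.088). It passed with the replicate block (0.035), without PR2 B (0.046) and at a pseudocount of 0.1. Close paralogs share sequence in the alpha and mu classes, and the authors' quantification may split reads between them.

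MGST3, a microsomal family member, rose in PR2. Its values were 28.2, 30.0 and 30.2 FPKM in PR2, 14, 10.2 and 10.3 in PR1 and 18.4, 16.4 and 8.55 in parental cells, with every PR2 library above all others. The log2 fold change was 1.04 ± 0.25 against parental cells and 1.30 ± 0.25 against PR1 (limma adjusted p = 0.013 and 0.0057), and neither call was lost without any single library. GSTP1, the pi-class transferase and the most abundant of the family, was at 1024, 1199 and 925 FPKM in PR2, 1610, 1644 and 1427 in PR1 and 1583, 1890 and 1412 in parental cells. It was lower in PR2 by −0.63 ± 0.18 against parental cells and by −0.58 ± 0.18 against PR1 (limma adjusted p = 0.027 and 0.044). The first call was lost without PR2 A, PR2 C or parental B (up to 0.12), without the A libraries (0.065), with no filter (0.059) and after quantile normalization (0.089). The second was lost without any library but parental C (up to 0.17), without the A libraries (0.12), with no filter (0.093), after quantile normalization (0.059) and with the 6 libraries alone (0.059). MGST1, MGST2 and the combined row GSTO1,GSTO2 passed in no comparison, with MGST1 at 360 ± 11.9 FPKM in PR2, 389 ± 21.5 in PR1 and 434 ± 15.9 in parental cells (SD, n = 3 each). The difference of −0.54 between PR2 and PR1 in GSTO1,GSTO2 passed with the replicate block and after quantile normalization (limma adjusted p = 0.059, then 0.023 and 0.039).

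**Figure D3:**
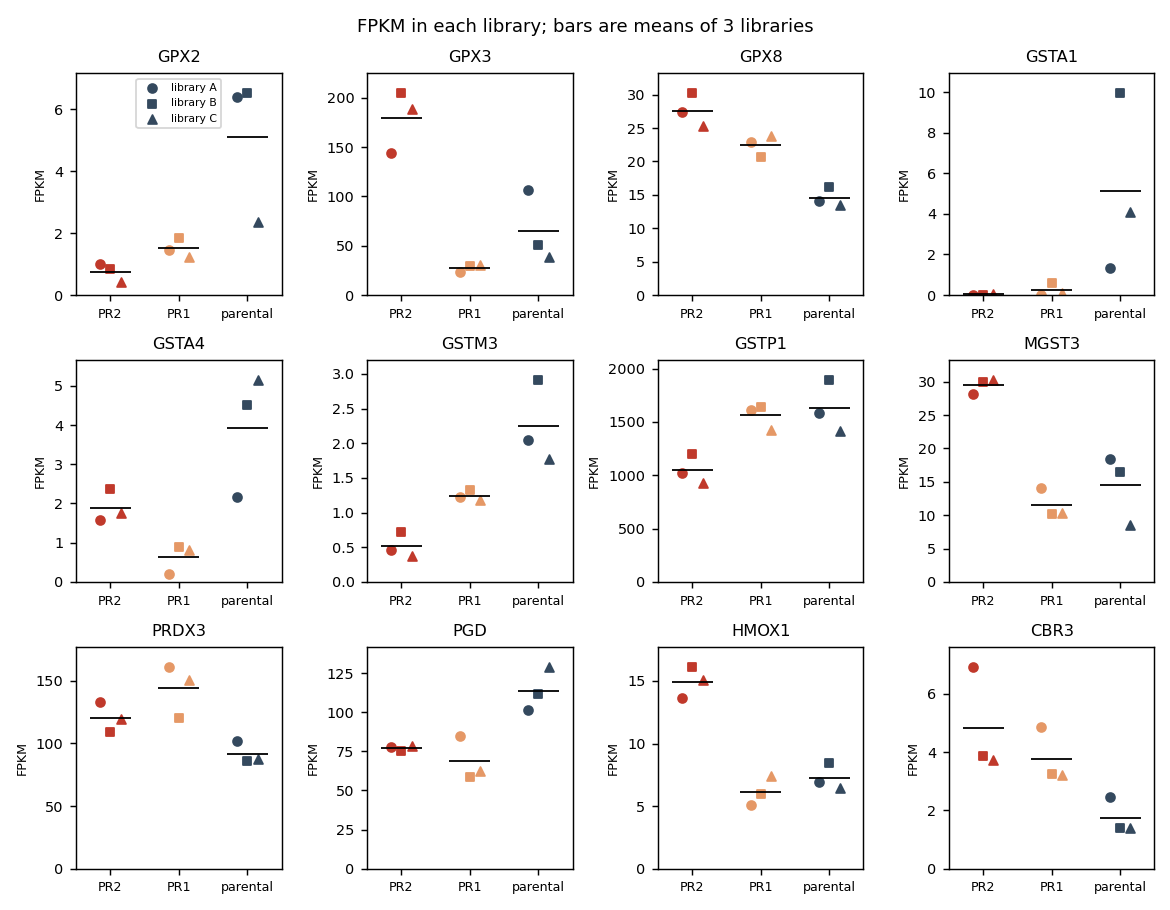
FPKM of 12 members that changed in at least 1 comparison (y axis, from 0), with each library as a point (circle A, square B, triangle C) and the mean of 3 libraries as a horizontal line, for PR2, PR1 and parental cells from left to right. GPX3, MGST3 and HMOX1 are high in PR2 only, GPX2 and GSTA1 are low in both derivatives, and GPX3 in parental A (106 FPKM) lies apart from parental B and C.

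Of the 8 thioredoxin and peroxiredoxin genes, PRDX3 was the only one to change. It encodes the mitochondrial peroxiredoxin and stood at 133, 109 and 120 FPKM in PR2, 161, 120 and 151 in PR1 and 102, 86.1 and 87.2 in parental cells. All libraries of both derivatives lay above the parental ones. It rose in PR1 by a log2 of 0.64 ± 0.16 (limma adjusted p = 0.025), a call lost without PR1 A, PR1 C, parental B or parental C (up to 0.084) and in the fit of the 6 libraries alone (0.050). In PR2 the difference of 0.39 missed the threshold (limma adjusted p = 0.11) and passed after quantile normalization (0.029). PRDX6, which reduces phospholipid peroxides, gave 199, 153 and 154 FPKM in PR2, 202, 141 and 136 in PR1 and 120, 115 and 103 in parental cells. Here too the derivatives did not overlap with parental cells, but the log2 differences of 0.57 in PR2 and 0.48 in PR1 missed the threshold (limma adjusted p = 0.054 and 0.12). The difference in PR1 passed with the replicate block and after quantile normalization (limma adjusted p = 0.030 and 0.032). That in PR2 passed without PR1 A (0.026), without the 3 A libraries (0.036), after quantile normalization (0.0067) and with the 6 libraries alone (0.044).

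The core of the thioredoxin system gave no call. TXN, thioredoxin itself, averaged 258 ± 70.3 FPKM in PR2, 334 ± 135 in PR1 and 327 ± 73.1 in parental cells (SD, n = 3 each). TXNRD1, the cytosolic thioredoxin reductase and an NRF2 target, averaged 143 ± 35.5, 101 ± 21.1 and 121 ± 24.4 FPKM in the same order, and SRXN1, sulfiredoxin, 27.3 ± 10.9, 20.1 ± 4.30 and 29.5 ± 13.4. Between the derivatives TXNRD1 differed by 0.49 and PRDX2, a cytosolic peroxiredoxin, by −0.51 (limma adjusted p = 0.17 and 0.051), and both passed with the replicate block (0.048 and 0.037), PRDX2 also after quantile normalization (0.040) and at a pseudocount of 0.1. PRDX1 and PRDX4 passed in no comparison, with log2 differences between −0.09 and 0.31. Of the superoxide dismutases, SOD1 and SOD2 passed in none, and catalase, which breaks down hydrogen peroxide in peroxisomes, changed once. CAT was at 26.2, 26.3 and 27.8 FPKM in PR2, 26.7, 29.9 and 35.0 in PR1 and 35.1, 38.7 and 38.8 in parental cells, a fall in PR2 by 0.47 ± 0.14 on the log2 scale (limma adjusted p = 0.035). The parental libraries all lay above the others. The CAT call was lost without PR1 B, parental B, parental C or any PR2 library (up to 0.11) and after quantile normalization (0.053).

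Of the 4 members grouped by role under NADPH supply, PGD and TKT fell in at least 1 comparison and none rose. PGD, the second oxidative enzyme of the pentose phosphate pathway, was at 77.5, 75.0 and 78.3 FPKM in PR2, 84.9, 58.3 and 62.6 in PR1 and 101, 111 and 129 in parental cells. No derivative library reached the parental range. PGD fell by 0.55 ± 0.17 on the log2 scale in PR2 and by 0.73 ± 0.17 in PR1 (limma adjusted p = 0.041 and 0.017). The call in PR2 was lost without PR1 C, parental B, parental C or any PR2 library (up to 0.13), and that in PR1 without PR1 B, PR1 C, parental B or parental C (up to 0.066). TKT, the transketolase of the same pathway, stood at 454, 526 and 462 FPKM in PR2, 621, 739 and 702 in PR1 and 625, 769 and 717 in parental cells. PR2 alone was low. The TKT log2 fold change was −0.55 ± 0.16 against parental cells and −0.51 ± 0.16 against PR1 (limma adjusted p = 0.029 and 0.043), and after quantile normalization −0.30 (0.21) against parental cells, with the call against PR1 lost as well (0.087). Both TKT calls were also lost without any single PR2 library, parental B or parental C (up to 0.14), and the second without PR1 B or PR1 C, with no filter (0.051) and with the 6 libraries alone (0.060). TALDO1, transaldolase, and ME1, the cytosolic malic enzyme, passed in no comparison. In a further list of pathway genes, 1 of 13 other NADPH genes rose and 2 fell in PR1 against parental cells. In PR2 against parental cells 0 rose and 2 fell. The gene that rose in PR1 was NNT, the mitochondrial transhydrogenase. It was at 26.0, 21.1 and 25.0 FPKM in PR2, 33.1, 29.0 and 46.7 in PR1 and 20.5, 17.6 and 18.0 in parental cells, and rose in PR1 by 0.89 ± 0.19 on the log2 scale (limma adjusted p = 0.010). NNT was named after its values were seen.

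Among the iron and haem genes HMOX1 changed. It encodes the inducible haem oxygenase, a target that BACH1 represses and NRF2 induces, and stood at 13.6, 16.1 and 15.1 FPKM in PR2, 5.10, 5.97 and 7.38 in PR1 and 6.96, 8.42 and 6.43 in parental cells. Every PR2 library lay above every other library, while PR1 and parental cells overlapped. HMOX1 rose in PR2 by a log2 of 0.95 ± 0.16 against parental cells and was higher by 1.17 ± 0.16 than in PR1 (limma adjusted p = 0.0024 and 0.0011), and both calls held under each alternative that was run. BLVRB, a biliverdin and flavin reductase, and the ferritin genes passed in none. FTH1 averaged 3610 ± 698 FPKM in PR2, 2777 ± 279 in PR1 and 4135 ± 1295 in parental cells, and FTL 2003 ± 312, 2006 ± 224 and 2769 ± 805 in the same order (SD, n = 3 each). FTH1 was higher in PR2 than in PR1 after quantile normalization only (limma adjusted p = 0.33, then 0.044). Processed copies of both ferritin genes exist in the genome, and reads can be shared with them.

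The quinone, epoxide and carbonyl enzymes gave a rise and a fall. CBR3, a carbonyl reductase, was at 6.92, 3.89 and 3.73 FPKM in PR2, 4.86, 3.27 and 3.22 in PR1 and 2.46, 1.40 and 1.40 in parental cells. All libraries of the derivatives lay above the parental ones, and the A library was highest in each group. CBR3 rose by 1.07 ± 0.24 in PR2 and by 0.80 ± 0.24 in PR1 on the log2 scale (limma adjusted p = 0.010 and 0.049). The call in PR1 was lost without PR2 B, PR2 C, any PR1 library, parental B or parental C (up to 0.15), with no filter (0.089) and after quantile normalization (0.050), and stood at 0.0017 with the replicate block. NQO1, the quinone reductase often used as a readout of NRF2, stood at 152, 128 and 132 FPKM in PR2, 173, 164 and 193 in PR1 and 178, 179 and 258 in parental cells. PR2 lay below both other groups, and parental C lay high. NQO1 fell in PR2 by 0.56 ± 0.18 on the log2 scale (limma adjusted p = 0.047), a call lost without PR2 B, PR2 C, any PR1 library, parental B or parental C (up to 0.14), at a filter of 5 FPKM (0.055), after quantile normalization (0.12) and with the 6 libraries alone (0.075).

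EPHX1, the microsomal epoxide hydrolase, was at 104, 158 and 126 FPKM in PR2, 148, 227 and 179 in PR1 and 165, 211 and 239 in parental cells. Its difference of −0.67 in PR2 against parental cells missed the threshold (limma adjusted p = 0.055) and passed without PR2 B, PR1 A or parental A and without the 3 A libraries (0.036). Between the derivatives the EPHX1 difference of −0.51 passed with the replicate block (limma adjusted p = 0.14 and, with it, 0.025). PTGR1, which reduces prostaglandins and alkenals, CBR1 and OSGIN1, an oxidative stress-induced growth inhibitor, passed in no comparison. OSGIN1 had the largest uncalled log2 difference in PR1 against parental cells, −0.70 (limma adjusted p = 0.23).

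Within PR2 and within parental cells a single library was the highest in many members, in PR2 at a share near that of all rows. Whether members varied together was not tested. In PR2 the A library was the highest in 24 of 48 members (50%), against 46% of all rows tested, and in parental cells the C library was the highest in 23 of 48 (47.9%), against 35.7% of all rows. GCLC, GCLM, SRXN1, TXNRD1, OSGIN1 and ME1, chosen after their values were seen, were all highest in A among PR2 libraries. Among PR1 libraries GCLC, GCLM, TXNRD1 and ME1 were highest in C, and SRXN1 and OSGIN1 in A. Among parental libraries all but TXNRD1, which was highest in A, were highest in C. SRXN1 was at 39.9, 21.2 and 20.7 FPKM in PR2 and at 22.8, 20.9 and 44.9 in parental cells. OSGIN1 was at 18.1, 10.9 and 8.83 FPKM in PR2 and at 8.37, 8.56 and 21.2 in parental cells. In SRXN1 and OSGIN1 the spread within PR2 and within parental cells exceeded the difference between their means. TXN, PRDX1, PRDX3, PRDX6, SOD1, PTGR1 and CBR3 were highest in the A library of all 3 groups, which is 14.6% of the members and 13.9% of all rows. PRDX1, a cytosolic peroxiredoxin, stood at 601, 447 and 379 FPKM in PR2, 621, 421 and 368 in PR1 and 501, 418 and 256 in parental cells. The A libraries of PR1 and of PR2 lay above the B and C libraries by more than the groups differed.

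**Figure D4:**
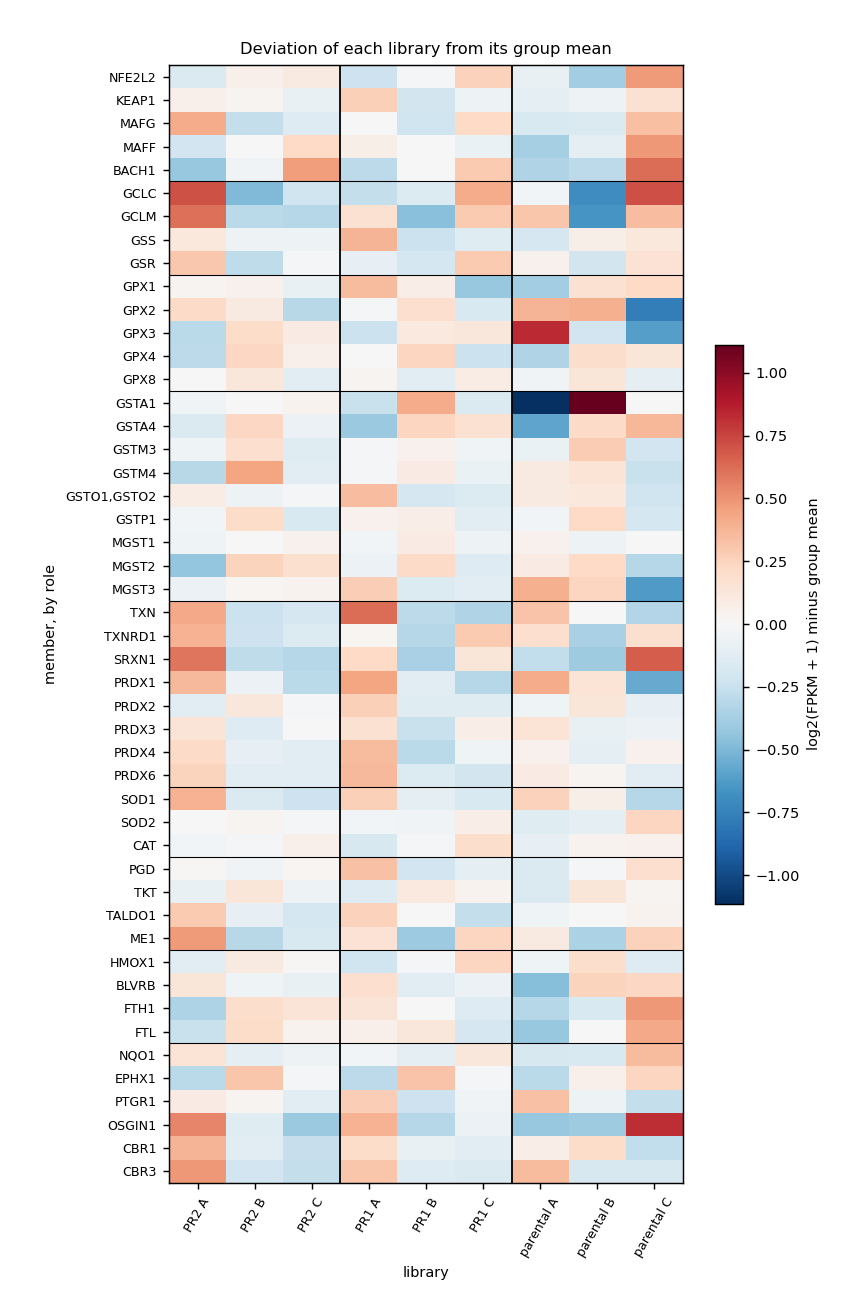
Deviation of each library from the mean of its group in log2(FPKM + 1), red above and blue below, for the 48 members (rows, by role) and the 9 libraries (columns, PR2, PR1 and parental cells from left to right). PR2 A and parental C are red for GCLC, GCLM, SRXN1, ME1 and OSGIN1, and GSTA1 spreads most within parental cells.

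The other genes of the pathway came from a further list of 97, of which 91 had a row of their own and 79 were tested. The list was written with earlier results of these data known and no test was run over it, so nothing is claimed for it as a list. Shares of all rows by direction are those given above for the members. In PR2 against parental cells 6 of 79 rose and 16 fell, a share of 27.8% against 23.4% of all rows, with a median log2 fold change of −0.18. In PR1 against parental cells 9 rose and 10 fell (24.1% against 15.5%, median 0.00), and 6 were higher and 11 lower in PR2 than in PR1 (21.5% against 19.9%, median −0.07). Leaving out single libraries moved these counts. In PR2 3 rose without parental B, 9 fell without PR2 B or PR2 C and 10 without parental B. In PR1 5 rose without PR1 B or parental C and 6 fell without PR1 C, and 6 were lower in PR2 than in PR1 without PR2 B or PR2 C. With the replicate block 15 rose in PR1, and 19 were lower in PR2 than in PR1.

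SLC7A11, the cystine carrier that feeds glutathione synthesis, passed in no comparison (lowest limma adjusted p 0.12). The aldo-keto reductases AKR1C1, AKR1C2 and AKR1C3, whose reads close paralogs may share, had log2 fold changes of −1.34, −3.62 and −2.23 in PR2 and −1.37, −2.96 and −1.69 in PR1 against parental cells (highest limma adjusted p 0.012). The AKR1C1 call in PR1 was lost without PR1 C (0.055) and without the A libraries (0.067).

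Among the largest further changes, LUCAT1 and TXNIP went the same way in both derivatives against parental cells, and TRIM16 passed in PR2 alone. TRIM16, an E3 ligase, stood at 31.9, 27.0 and 23.2 FPKM in PR2, 13.4, 11.2 and 11.3 in PR1 and 10.8, 7.27 and 11.9 in parental cells, a rise in PR2 of 1.38 ± 0.20 against parental cells (limma adjusted p = 0.00079). It was higher by 1.12 ± 0.20 in PR2 than in PR1 (limma adjusted p = 0.0035). LUCAT1, a long non-coding RNA, was at 1.09, 1.95 and 2.47 FPKM in PR2, 1.24, 1.49 and 0.970 in PR1 and 7.81, 6.56 and 6.54 in parental cells, and fell by 1.52 ± 0.19 in PR2 and by 1.84 ± 0.19 in PR1 (limma adjusted p = 0.00043 and 0.00026). TXNIP, which binds and inhibits thioredoxin, was higher in every library of both derivatives than in parental cells. Its values were 74.3, 84.4 and 147 FPKM in PR2, 68.3, 90.2 and 129 in PR1 and 53.6, 40.7 and 29.2 in parental cells, with log2 fold changes of 1.26 and 1.19 (limma adjusted p = 0.017 and 0.032). The TXNIP calls were lost without parental B or parental C, and further without PR2 C in PR2 and without PR1 B or PR1 C in PR1 (up to 0.12), in PR1 also with no filter (0.059).

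PTGES, a microsomal prostaglandin synthase related to the MGST genes, rose in PR1 by 1.28 ± 0.30 (limma adjusted p = 0.019), a call lost without PR1 B, parental B or parental C (up to 0.072). Between the derivatives the NRF2 relatives NFE2L1 and NFE2L3 were higher in PR2. NFE2L1, which induces proteasome genes, was at 94.3, 72.0 and 74.9 FPKM in PR2 and 37.3, 26.0 and 35.5 in PR1, and NFE2L3 at 27.6, 21.7 and 19.3 in PR2 and 8.34, 9.57 and 8.62 in PR1. The differences were 1.27 ± 0.21 and 1.27 ± 0.16 on the log2 scale (limma adjusted p = 0.0025 and 0.00048). Against parental cells NFE2L3 rose in PR2 by 1.001 ± 0.16 (limma adjusted p = 0.0013). NFE2L1 fell in PR1 by 0.82 ± 0.21 (limma adjusted p = 0.026), a call lost without PR1 B, PR1 C, parental A or parental C (up to 0.092). ALDH3A1, an aldehyde dehydrogenase, and the sestrin gene SESN1 were lower in PR2 than in PR1, by −1.51 ± 0.21 and −1.28 ± 0.19 (limma adjusted p = 0.00091 and 0.0014). ALDH3A1 stood on either side of parental cells, at −0.68 ± 0.21 in PR2 and 0.83 ± 0.21 in PR1 (limma adjusted p = 0.039 and 0.023). The ALDH3A1 call in PR2 was lost without any PR2 library, PR1 B, parental A or parental B (up to 0.11), without the A libraries (0.11), with no filter (0.071) and at 5 FPKM (0.055). That in PR1 was lost without PR1 A, PR1 B, parental B or parental C (up to 0.082). SESN1 rose in PR1 by 0.87 ± 0.19 against parental cells (limma adjusted p = 0.012), a call lost without PR1 C (0.053), and missed the threshold in PR2 (−0.41, limma adjusted p = 0.15).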

How the data were processed

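RNA of 9 libraries was measured. Libraries came from a TruSeq RNA kit, per the labels' protocols. Per the submitters' processing notes, the builds were hg19 and GRCh37 and the tools Cufflinks 2.2.1, Cuffdiff 2.2.1 and TopHat2 2.0.14. Annotation and read numbers were not given in the sources used here. Deposited values are FPKM made by the authors, a unit inferred from the tools named and from column totals of 571570 to 686460, since the header names none. Of the 24069 rows 704 combine several genes, and 5378 are at 0 in every library. A 0 may be an unexpressed gene or a failed estimate, which the values do not tell apart.

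Analysis in R 4.3.3 used log2(FPKM + 1). The 12011 rows that reached 1 FPKM in at least 3 libraries were fitted with limma 3.58.1, with 1 mean per group over all 9 libraries and an intensity trend, with two-sided tests and Benjamini-Hochberg adjustment over all rows. Fold changes on this scale understate the change of low genes. The fit was tested on simulated data.

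The members, roles and the further gene list were chosen with earlier results of these data known. Every member is accounted for. From the further list the 2 largest rises and 2 largest falls per comparison with a mean of at least 5 FPKM in the higher group were named, with SLC7A11 and AKR1C1 to AKR1C3, and their other calls were added after the values were seen. A result of 1 further gene is not reported here. Deviations from group means of same-letter libraries were correlated across rows. Between PR1 and parental cells the values were 0.31 (A), 0.48 (B) and 0.16 (C), and between PR2 and PR1 0.53, 0.54 and 0.25. The letters were read as pairing these libraries, though no values for libraries of different letters were set beside them. Between PR2 and parental cells the values were 0.30 (A), 0.42 (B) and 0.014 (C), and because of C pairing there is uncertain. The block was 1 letter effect over all 9 libraries, so its results in every comparison also rest on that pairing. With the block GSTA4, PRDX3, PRDX6 and EPHX1 passed in PR2 against parental cells (limma adjusted p = 0.01, 0.035, 0.011 and 0.0075). Libraries correlated at 0.961 to 0.985 within groups, and none were identical. Alternatives were pseudocounts, filters, quantile normalization, a replicate block, fewer libraries and the 6 libraries compared alone. The number of libraries and unknown absolute depth limit the precision.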

Additional observations from a re-analysis of the deposited data

Results flagged for a closer look

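Members whose change from parental cells differed between the derivatives, by the limma test of PR2 against PR1, were listed for a closer look. The difference in log2 fold change, PR2 minus PR1, was 2.64 for GPX3, 1.30 for MGST3, 1.17 for HMOX1, 0.99 for GSTM4, 0.95 for MAFG and 0.85 for GSTA4. It was −0.86 for MAFF, −0.58 for GSTP1, −0.57 for GSTM3 and −0.51 for TKT. The limma adjusted p ranged from 0.00047 for GPX3 to 0.049 for GSTA4. GPX3 was the only one called in opposite directions in the derivatives against parental cells (1.56 in PR2 and −1.08 in PR1), and its call in PR1 was lost under most alternatives. With 3 libraries a group, no formal test for outlying libraries was made, though each library was left out in turn.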

How the results depend on the processing

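No called fold change of a named gene reversed. Uncalled differences could change sign, as for NFE2L2 in PR1 against parental cells, −0.3 to 0.13 with single libraries left out. Refitting the 55 called fold changes of named genes under 16 alternatives gave 711 values on the same side of the threshold and 156 that kept their direction but not the call. Members that fell in PR1 numbered 1 at 5 FPKM, 3 without the 3 A libraries and 8 with the replicate block, against 5. Members that fell in PR2 against parental cells numbered 5 at 5 FPKM, where 42 members were tested, and 5 after quantile normalization, against 9. With the replicate block they numbered 11, although pairing of these groups is uncertain. Members lower in PR2 than in PR1 numbered 2 with no filter, 2 with the 6 libraries alone, 1 without the A libraries and 7 with the replicate block, against 4. Of the further genes, 15 rose in PR1 and 11 in PR2 with the block, 17 fell in PR1 without the A libraries, and 19 were lower in PR2 than in PR1 with the block, against 9, 6, 10 and 11.

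Leaving out each library in turn gave 0 to 3 members that rose and 2 to 6 that fell in PR1, 5 to 6 and 3 to 11 in PR2 against parental cells, and 4 to 6 higher and 0 to 3 lower in PR2 than in PR1. For the further genes it gave 5 to 9 and 6 to 14 in PR1, 3 to 9 and 9 to 17 in PR2, and 5 to 7 and 6 to 11 between the derivatives. The cause was not tested. A left-out library leaves its group with 2. At a pseudocount of 0.1 no count moved by over 1.5 times, and the falls of low genes became larger, to −4.98 for GSTA1 and −2.54 for GPX2 in PR2.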

Other observations

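SLC7A11, the cystine carrier, showed the same libraries high as GCLC and SRXN1. It stood at 15.2, 3.83 and 4.30 FPKM in PR2 (A, B and C), 1.91, 2.07 and 3.47 in PR1 and 3.67, 6.58 and 15.6 in parental cells. The PR2 A and parental C libraries lay near each other and above all others. The genes with such a spread were picked after their values were seen.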
